A study of Mus musculus with 8 samples.

Results

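The comparison is of virus dose within a single construct: the chimera library made at a multiplicity of infection (MOI) of 100 against the chimera library whose labels give no MOI. The 2 libraries were taken by their column names from a table of 8, with 1 library a side and no replicate, and all genes were compared. Of the 37558 genes in the table, 15547 reached a level of 1 CPM (counts scaled to a common library total) in at least 1 of the 8 libraries and are called measured. All cultures were of P19, a mouse embryonal carcinoma line whose pluripotent cells can form neurons or muscle, infected with lentivirus in the presence of polybrene and moved after infection to Neurobasal medium with B27, a medium for neurons. The chimera, labelled MD(ND2bHLH), is MyoD with its basic helix-loop-helix (bHLH) domain exchanged for that of NeuroD2. The libraries it is read beside carried GFP, MyoD, NeuroD2, or a mutant of the chimera labelled WCS, which the labels do not explain, without an MOI label and at MOI 100. The remaining library carried another mutant of the chimera, labelled WC, also not explained and without an MOI label. The MOI of the unlabelled libraries, the promoter driving each construct, the time of harvest and the number of cells infected are not stated in the labels. With 1 culture for each dose, the dose cannot be told apart from any other difference between these cultures.

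MOI is the number of infectious particles supplied per cell, so a higher MOI is meant to infect more cells and to put more copies into each. bHLH factors bind DNA in pairs, usually with an E-protein partner, at a short sequence called an E-box, written CANNTG. MyoD switches on the skeletal muscle program through factors such as myogenin, while NeuroD2 acts late in neuronal differentiation, where cells leave the cell cycle and make axon and synapse proteins.

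The chimera pair had totals of 26410500 counts without an MOI label and 28113664 at MOI 100, within the range of 26410500 to 43984066 over the 8 libraries. A count of 3, the floor used for absent genes, equals 0.113 and 0.104 CPM. Of 14281 genes with at least 50 counts in the pair, 72.2% differed by a chi-square test on their counts at p under 0.05, against 26.7% between the libraries of WCS and of WC, another mutant of the chimera, which compares libraries and not doses. Genes of ribosomal proteins took 7.23% of counts in the chimera and 4.59% at MOI 100, and 7.96% and 4.13% in the WCS pair. Rn7s6, a 7S RNA gene, stood at 0.565 and 1.21 CPM in the chimera pair but at 14.4 and 1.28 CPM in the WCS pair. It stood at 16.3 CPM in GFP, 13.5 CPM in MyoD and 13.0 CPM in WC, but at 0.594 CPM in NeuroD2. The WCS pair and the comparisons of NeuroD2 with GFP and with MyoD cross this difference, while the chimera pair does not. The part of these shifts in the results was not tested.

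The delivered construct was counted at a higher level at MOI 100. Myod1 (ENSMUSG00000009471), which supplies most of the chimera, was counted at 116 CPM in the unlabelled chimera library and at 555 CPM at MOI 100, beside 0.681 CPM in GFP and 296 CPM in MyoD. The ratio of the chimera pair was 4.80 (95% counting interval 4.62 to 4.99). Neurod2 (ENSMUSG00000038255), which supplies the bHLH segment, stood at 13.8 and 73.3 CPM, beside 2.51 CPM in GFP and 180 CPM in NeuroD2, a ratio of 5.30 (4.74 to 5.94). Counts per gene do not separate the delivered sequence from the cell's own gene. In bulk RNA, more cells carrying the construct and more construct RNA per cell cannot be told apart, and for every gene below a change in the number of cells of a type and a change in the RNA per cell cannot be told apart either.

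The 4 marker genes moved in different ways. Dcx (ENSMUSG00000031285), the microtubule protein doublecortin of young neurons, went from 19.1 CPM without the MOI label to 195 CPM at MOI 100, which was 10.2-fold higher (9.31 to 11.2). GFP had 0.681 CPM of it and NeuroD2 397 CPM, and the library at MOI 100 lay between them. Myog (ENSMUSG00000026459), the myogenic factor myogenin, stood at 58.2 and 197 CPM, 3.38-fold higher (3.20 to 3.58), against 95.1 CPM in MyoD. The level at MOI 100 was thus above that of the MyoD library. Myh7 (ENSMUSG00000053093), the slow and cardiac myosin heavy chain, went the other way, with 17.9 and 4.72 CPM, 3.80-fold lower (3.13 to 4.63), against 346 CPM in MyoD. Nanog (ENSMUSG00000012396), a transcription factor of pluripotent cells, stood at 48.9 and 5.07 CPM, 9.64-fold lower (8.12 to 11.5), where GFP had 135 CPM.

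**Figure D1:**
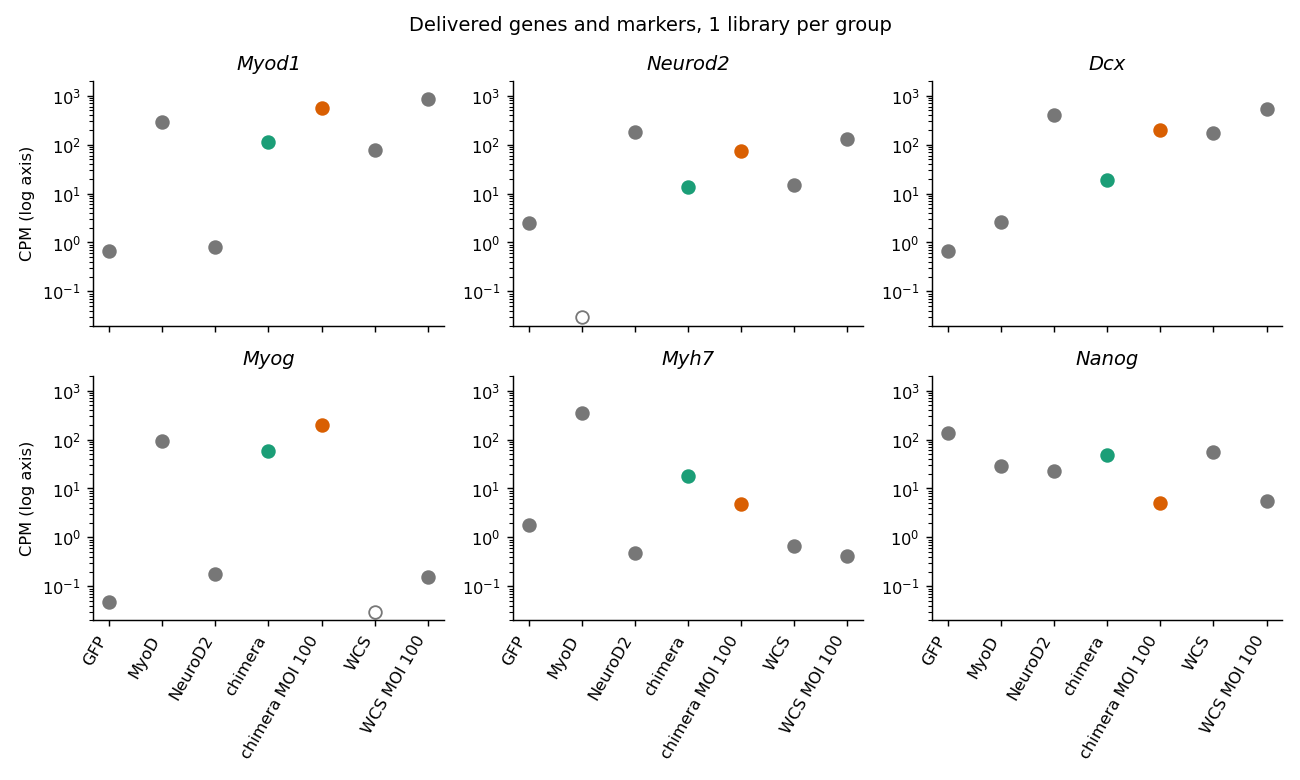
CPM on a log axis of Myod1, Neurod2 and the 4 marker genes in 7 libraries, 1 point per library, with the chimera in green, the chimera at MOI 100 in orange and open circles for a count of 0. The orange point is above the green point for Myod1, Neurod2, Dcx and Myog and below it for Myh7 and Nanog.

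The promoters of the 4 markers are shown because bHLH factors bind E-boxes and the markers moved by unlike amounts. Each line gives the 250 bases before the first RefSeq start in the table (build GRCm38.p6), 5′ to 3′ on the gene's strand, with every CANNTG in capitals. Dcx lies at chrX:143933220-143933469, minus strand, Myog at chr1:134289754-134290003, plus strand, Myh7 at chr14:54994627-54994876, minus strand and Nanog at chr6:122707239-122707488, plus strand.
Dcx: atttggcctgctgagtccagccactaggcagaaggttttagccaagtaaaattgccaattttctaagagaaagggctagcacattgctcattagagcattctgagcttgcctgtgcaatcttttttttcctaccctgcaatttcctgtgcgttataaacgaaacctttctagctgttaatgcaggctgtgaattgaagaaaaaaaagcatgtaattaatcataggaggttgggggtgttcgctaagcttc
Myog: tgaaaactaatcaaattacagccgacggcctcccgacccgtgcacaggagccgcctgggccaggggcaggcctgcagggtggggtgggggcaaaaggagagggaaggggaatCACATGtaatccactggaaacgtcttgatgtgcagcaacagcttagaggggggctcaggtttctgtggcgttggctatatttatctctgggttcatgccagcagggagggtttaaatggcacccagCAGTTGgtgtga
Myh7: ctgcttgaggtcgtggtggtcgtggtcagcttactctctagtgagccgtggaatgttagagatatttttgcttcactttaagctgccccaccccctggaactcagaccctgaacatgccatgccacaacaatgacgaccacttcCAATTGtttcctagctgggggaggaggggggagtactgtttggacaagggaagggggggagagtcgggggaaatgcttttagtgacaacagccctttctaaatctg
Nanog: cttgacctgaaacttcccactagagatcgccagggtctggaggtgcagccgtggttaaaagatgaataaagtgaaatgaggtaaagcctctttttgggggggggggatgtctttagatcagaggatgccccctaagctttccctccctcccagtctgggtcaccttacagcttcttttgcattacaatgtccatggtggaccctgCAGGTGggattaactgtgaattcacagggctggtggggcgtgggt
The Myog window held CACATG starting 138 bases before the start and CAGTTG starting 12 bases before it. The Myh7 window held CAATTG and the Nanog window held CAGGTG, while the Dcx window held no CANNTG, which says only that these letters are not in this stretch.

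CANNTG, which reads the same on both strands, was in 64.2% of 109 windows of the genes at least 4-fold higher at MOI 100, of which 79 of 110 with a symbol were in the RefSeq table. Over all 32851 windows of the same length it was in 66.2%. CAGCTG, also the same on both strands, was in 14.7% against 13.0%. CAGATG, searched with CATCTG for the opposite strand, was in 12.8% against 14.4%, and CAGGTG with CACCTG in 19.3% against 17.2%. In 36 windows of 24 genes at least 4-fold lower at MOI 100, CANNTG was in 72.2%, CAGCTG and CAGATG in 16.7% each, and CAGGTG in 36.1%. Each of the last 3 motifs is itself a form of CANNTG, and these shares are descriptions with no test.

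Genes were called by size, since 1 library a side gives no replicate error. A gene counted as changed in size when log2(CPM + 0.5) differed by at least 2, that is 4-fold, and the higher of the 2 libraries had 5 CPM or more. At MOI 100, the genes higher by 4-fold or more numbered 113 of 15547 measured (0.727%), and those lower by as much numbered 31 (0.199%). At 2-fold with the same minimum the counts were 786 (5.06%) and 332 (2.14%). Counts of list and set members at 2-fold or 4-fold in the chimera pair below use this minimum. They are to be read beside these shares. The median log2 ratio of all measured genes was 0.02. With 5 CPM or more in the higher library, 50 genes (0.322%) had a ratio whose lower counting bound was above the Myod1 ratio.

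The genes with the highest ratios come first. Thsd7b, a thrombospondin-domain membrane protein, stood at 2.22 and 38.6 CPM, 17.3-fold higher (13.3 to 22.9), and at 24.1 CPM in NeuroD2. Shox2, a homeodomain factor, stood at 1.77 and 26.7 CPM, 15.1-fold higher (11.2 to 20.7). Syt2, a synaptotagmin that senses calcium for transmitter release, stood at 6.22 and 63.2 CPM, 10.2-fold higher (8.67 to 12.0). These genes were at 0.827 CPM or less in GFP and at 0.346 CPM or less in MyoD. The others of the 10 highest were Stk32b, a kinase, Pcsk2, a protease that matures neuropeptides, C1ql3, a secreted synaptic protein, Actl6b, a subunit of the neuronal BAF chromatin complex, Synpr, a synaptic vesicle protein, and Pkd2l1, an ion channel, with ratios from 8.53 to 14.8. With Dcx they complete the 10.

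The genes with the lowest ratios included several of pluripotent or epithelial cells. Myb, a transcription factor of dividing cells, stood at 26.3 and 2.88 CPM, 9.12-fold lower (7.25 to 11.6), and at 95.8 CPM in GFP. Cdh1, E-cadherin, which joins epithelial and pluripotent cells, stood at 34.4 and 5.83 CPM, 5.91-fold lower (5.005 to 7.004). Cyp26a1, which breaks down retinoic acid, stood at 5.12 and 0.486 CPM, 10.5-fold lower (6.07 to 19.8). H2-Aa, an MHC class II chain, stood at 15.8 and 1.70 CPM, and at 2.16 CPM in GFP. Ripk4, Foxi3, Rgcc and Apobec1 were 6.76-fold to 10.6-fold lower, and Nanog was also among the 10 lowest.

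**Figure D2:**
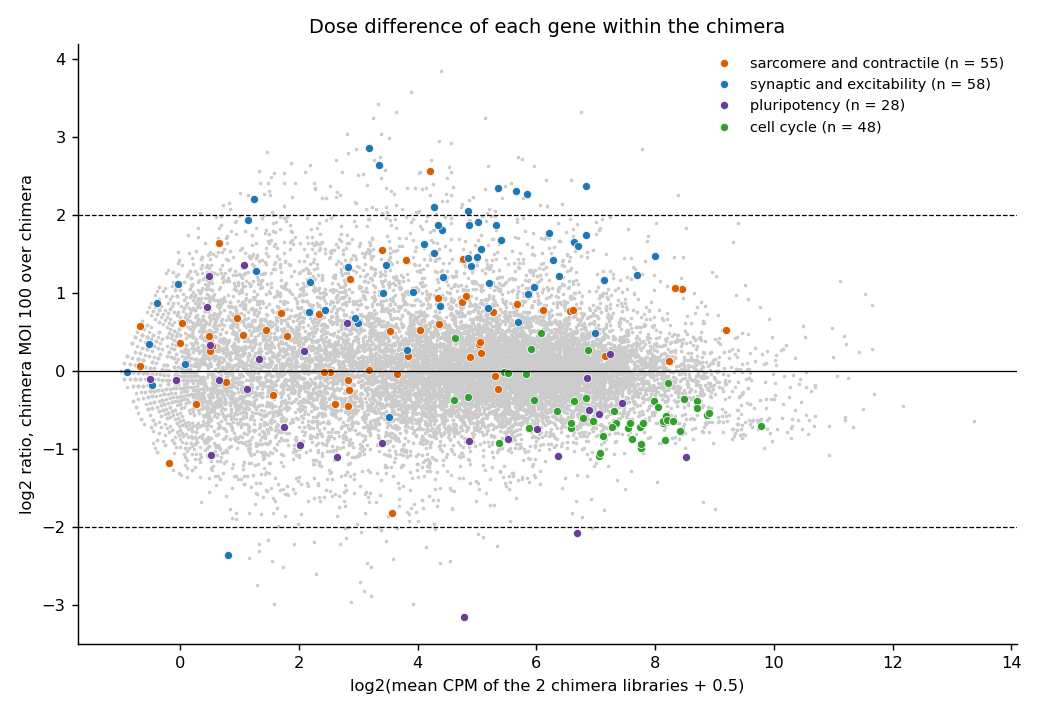
Each point is a measured gene with a symbol (14833 genes), with the log2 of its mean CPM in the chimera pair plus 0.5 across and the log2 ratio of chimera MOI 100 over chimera upward. Dashed lines mark 4-fold, synaptic genes (blue) lie mostly above 0, cell cycle genes (green) mostly below it, and sarcomere genes (orange) spread around a median of 0.45.

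A test was possible only for the difference that the chimera shares with WCS. The 4 libraries of both constructs, each without and with MOI 100, entered 1 model of construct and MOI label in edgeR (quasi-likelihood test), with Benjamini-Hochberg adjustment over 16122 genes and a threshold of 0.05. The MOI label was called higher for 2175 genes (13.5%) and lower for 1974 (12.2%). Every count of list members called by the fit below is to be read beside these shares. This fit has 1 residual degree of freedom, and its p-values measure how alike the dose difference was in the 2 constructs, not the spread between cultures of a dose. Without the construct term it called 0 genes, with 3396 at an unadjusted p under 0.05. Of the genes of the 4 muscle lists that the fit called higher, 10 of 32 were under 1 CPM in both WCS libraries, a limit chosen after seeing the data, and their calls rest on the chimera libraries. In what follows, "rose" and "fell" are used only of genes this fit called.

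In that fit Dcx rose (adjusted p = 0.0039), Myog rose (adjusted p = 0.0023), and Nanog fell (adjusted p = 0.00058). Myh7 fell with an adjusted p of 0.020. For Myog and Myh7 the call rests on the chimera pair: Myog had 0 counts in WCS and 0.157 CPM in WCS at MOI 100, and Myh7 had 0.679 and 0.407 CPM. Among the smallest adjusted p-values, Ret, a receptor for glial-derived neurotrophic factors, rose from 13.8 to 93.4 CPM in the chimera, and Rgs4, a regulator of G protein signalling, rose from 53.5 to 387 CPM. Thsd7b, L1cam, Cadm3, St18, Scg2 and Add2 were among the top 10 that rose. Sfrp1, a secreted Wnt antagonist, fell from 195 to 47.7 CPM, and Foxh1, a partner of SMAD proteins in Nodal signalling, fell from 56.2 to 16.8 CPM. Nanog, Myb, Plcg2, Ripply1, Ezr, Pawr, Apoe and Nid2 complete the 10 that fell. Without the construct term, the adjusted p of the top 10 in each direction was between 0.147 and 0.312.

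Neuronal structure genes were higher almost throughout. Of 45 measured genes of the neuronal cytoskeleton and cell adhesion, 24 were higher by 2-fold or more, 5 of them by 4-fold, and 0 were lower by 2-fold. The median log2 ratio was 1.22 (order-statistic interval over members 0.88 to 1.43). The fit called 37 of 45 higher and 0 lower. Tubb3, the neuronal beta-tubulin, rose from 284 to 1058 CPM, with 1054 CPM in the NeuroD2 library and 110 CPM in that of GFP. Ina, the neurofilament protein internexin, stood at 12.9 and 89.4 CPM, 6.94-fold higher (6.20 to 7.79), and Stmn4, a stathmin that binds tubulin, at 9.64 and 62.1 CPM. Robo2, an axon guidance receptor, rose from 60.9 to 240 CPM, where NeuroD2 stood at 71.4 CPM. In these 4 genes the chimera at MOI 100 lay several-fold above the chimera, and for Robo2 also far above NeuroD2. Neurofilament genes did not all follow, since Nefh, the heavy neurofilament, stood at 3.09 and 2.53 CPM and was not called.

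Synapse and excitability genes had the largest list median. At 5 CPM or more, 37 of 58 measured members were up by 2-fold, 8 of them by 4-fold, and 0 were down by 2-fold. The median was 1.34 (1.13 to 1.56). The fit called 50 of 57 higher and 1 lower. Rab3c, a small GTPase of synaptic vesicles, stood at 2.34 and 17.1 CPM, 7.33-fold higher (5.62 to 9.70). The gene of chromogranin B, Chgb, which sits in secretory granules, rose from 36.2 to 190 CPM, and Snap25, a SNARE protein of vesicle fusion, from 16.5 to 83.6 CPM. Slc17a6, a vesicular glutamate transporter, rose from 8.14 to 31.2 CPM. Gad2, an enzyme that makes the transmitter GABA, was the 1 that fell, from 2.41 to 0.0694 CPM, the latter from 2 counts. It was chosen for mention after its value was seen, as were Tubb3, Robo2, Nefh, Snap25 and Slc17a6.

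The transcription factors of neurogenesis were more mixed than the structural genes. Of 37 measured members, 11 were up by 2-fold and 1 was down, the median was 0.88 (0.43 to 1.29), and 20 passed the fit as higher and 2 as lower. Nhlh2, a bHLH factor of young neurons, stood at 4.26 and 27.0 CPM, 6.35-fold higher (5.21 to 7.81), and at 25.1 CPM in NeuroD2 and 0 counts in GFP. St18, a zinc finger factor of the Myt1 family, rose from 7.16 to 36.4 CPM. Neurod1, a bHLH relative of NeuroD2, rose from 38.6 to 150 CPM. Scrt2, a zinc finger repressor, stood at 1.43 and 8.47 CPM, but it was not called in the fit (adjusted p = 0.073). Most of the factors called were higher, but not all. Neurod1 was chosen after its value was seen.

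Homeodomain factors that mark neuron subtypes had a median of 0.53 (0.17 to 1.05) over 31 measured members. By 2-fold, 5 were up and 0 down. The fit called 12 higher and 3 lower, against 13.5% and 12.2% of all genes tested. Pou4f1, a factor of sensory neurons, stood at 4.45 and 31.8 CPM, 7.16-fold higher (5.91 to 8.75), above the 17.7 CPM of NeuroD2. Onecut2 rose from 24.3 to 108 CPM and Lhx1, a factor of several interneuron types, from 1.62 to 7.43 CPM.

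Skeletal muscle genes were higher by a smaller amount. The 55 measured sarcomere and contractile genes had a median of 0.45 (0.19 to 0.62), or 0.27 with a pseudocount of 2 CPM, and by 2-fold 7 were up and 1 was down, while 1 was up by 4-fold. The fit called 9 of 51 higher and 1 lower, where 13.5% and 12.2% of all genes tested were. Ttn, the giant spring protein titin, rose from 209 to 438 CPM, and Trim55, a titin-binding ubiquitin ligase, from 14.1 to 38.9 CPM. Trim55 stood at 0.034 and 0.157 CPM in the WCS pair, so its call rests on the chimera libraries. The embryonic myosin heavy chain gene Myh3 stood at 132 and 150 CPM against 3060 CPM in MyoD, and Actc1, a sarcomeric actin, at 481 and 690 CPM against 5163 CPM in MyoD. Both stayed far below the MyoD library in the chimera with and without the MOI label. Nebl, a nebulin relative of cardiac muscle, stood at 4.86 and 31.1 CPM, 6.40-fold higher (5.32 to 7.76), but it was higher in NeuroD2 (11.0 CPM) than in MyoD (0.538 CPM). Reads of the clustered myosin heavy chains and of the actins can be shared between near-identical genes, so their single values are uncertain. Ttn, Myh3 and Actc1 were chosen after their values were seen.

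Other muscle lists had like medians. Genes of calcium handling and muscle metabolism had a median of 0.40 (0.08 to 0.75) over 29 members. By 2-fold, 5 were up and 1 was down. The fit called 6 of 27 higher and 2 lower, against 13.5% and 12.2% of all genes tested. Atp2a1, the fast-muscle calcium pump, stood at 111 and 355 CPM, 3.19-fold higher (3.07 to 3.33), against 480 CPM in MyoD. Stac3, which couples excitation to calcium release, rose from 3.20 to 13.7 CPM, with 0.374 and 1.003 CPM in the WCS pair. Genes of the muscle membrane and the neuromuscular synapse had a median of 0.40 with an interval that spans 0 (-0.03 to 0.90) over 19 members, with 2 at least 2-fold in each direction. Sgca, alpha-sarcoglycan, rose from 3.88 to 13.8 CPM, while Dmd, dystrophin, fell from 77.9 to 29.6 CPM and Lrp4, an agrin receptor, from 25.7 to 10.2 CPM. Sgca stood at 0.136 and 0.125 CPM in the WCS pair, so its call rests on the chimera libraries. Dmd and Lrp4 were not muscle-restricted here, with 71.7 and 31.6 CPM in GFP.

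Among myogenic regulators and fusion genes, 10 of 37 were up by 2-fold and 2 were down. The median was 0.50 (0.15 to 0.96), and the fit called 13 of 35 higher and 3 lower. Mymk, the myoblast fusion protein myomaker, rose from 19.9 to 57.0 CPM, against 140 CPM in MyoD, and was chosen after its value was seen. With 0 counts and 0.157 CPM in the WCS pair, its call too rests on the chimera libraries. Eya2, a transcriptional cofactor with a phosphatase domain, stood at 40.0 and 128 CPM, but it was at 3.07 CPM in MyoD and 30.9 CPM in NeuroD2 and was not called in the fit (adjusted p = 0.539). Myog thus passed the MyoD library at the higher dose, while the contractile genes named above, other than Nebl, did not.

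**Figure D3:**
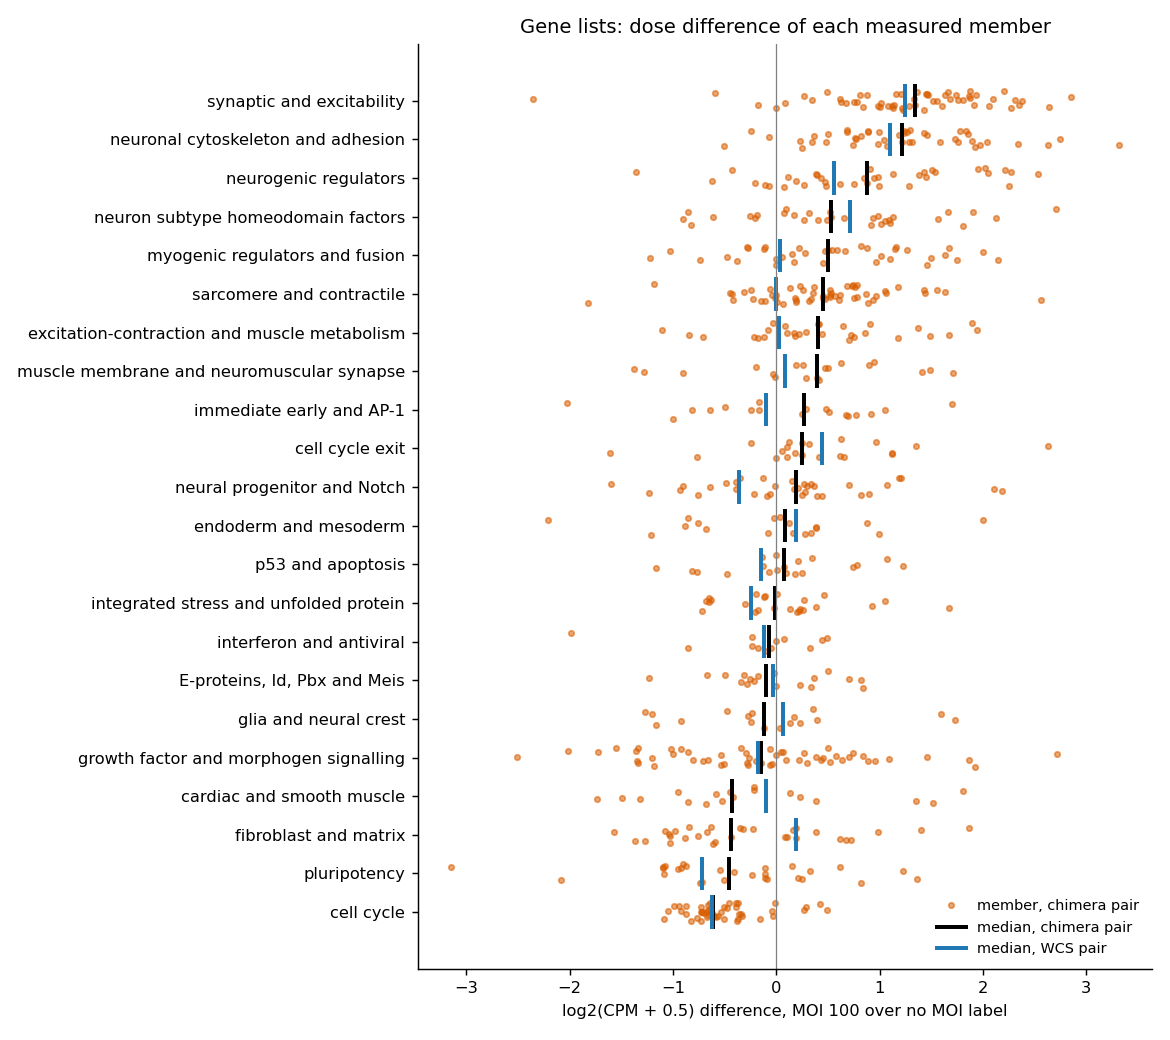
Log2 ratio of every measured member of the 22 gene lists in the chimera pair (orange points), with the list median in the chimera pair (black bar) and in the WCS pair (blue bar). The neuronal lists have the highest medians in both pairs, up to 1.34 in the chimera, and the sarcomere list has a median of 0.45 in the chimera and 0.00 in WCS.

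The same split was seen in sets taken from the MyoD and NeuroD2 libraries, which take no part in the dose comparison. MyoD-activated genes were past the 4-fold rule when MyoD was set against GFP and also when it was set against NeuroD2, and NeuroD2-activated genes were defined the same way for NeuroD2. Myod1 and Neurod2 themselves are in these sets. The 478 NeuroD2-activated genes had a median log2 ratio of 1.31 (1.26 to 1.38) in the chimera pair. At 5 CPM or more in the higher library, 298 of these (62.3%) were up by 2-fold, 81 of them by 4-fold, and 0 were down by 2-fold. At any size and level 440 were higher and 38 lower, with a lowest log2 ratio of -1.83. The fit called 365 of 476 higher and 8 lower. The 277 MyoD-activated genes had a median of 0.40 (0.32 to 0.49), and 43 (15.5%) of them were up by 2-fold, 4 by 4-fold, while 3 were down by 2-fold. Read from the other side, 81 of the 113 genes at least 4-fold higher (71.7%) were NeuroD2-activated and 4 (3.54%) were MyoD-activated. The sets held 478 and 277 of the 15547 measured genes, in that order. The median of the MyoD-activated genes was 0.14 when the set was drawn from MyoD against NeuroD2 alone (410 genes), while that of the NeuroD2-activated genes was then 1.19 (686 genes). For the 37 genes that both factors activated the median was 0.96 (0.77 to 1.21).

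Where each gene stood between GFP (0%) and its activating factor (100%) on the log2(CPM + 0.5) scale gives the same data as a level. NeuroD2-activated genes had a median position of 47.1% in the chimera and 85.5% at MOI 100, and the number at or above the NeuroD2 library went from 10 to 130 of 478. MyoD-activated genes had a median position of 33.2% in the chimera and 43.3% at MOI 100, and the number at or above the MyoD library went from 0 to 7 of 277. Those 7 included Myod1 itself, Myog, Musk, the receptor tyrosine kinase of the neuromuscular synapse, and Lrtm1. The 4 MyoD-activated genes at least 4-fold higher included Myod1 and Etv1, an ETS factor. Of the 3 at least 2-fold lower, Myh7 stood with Nupr1, a stress-induced chromatin protein (5.01 and 1.42 CPM), and G0s2, an inhibitor of fat breakdown (6.44 and 2.60 CPM). Those named here were chosen after their values were seen. Positions in the chimera pair share the GFP library and the factor's library, so the 2 positions of a gene are not independent.

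**Figure D4:**
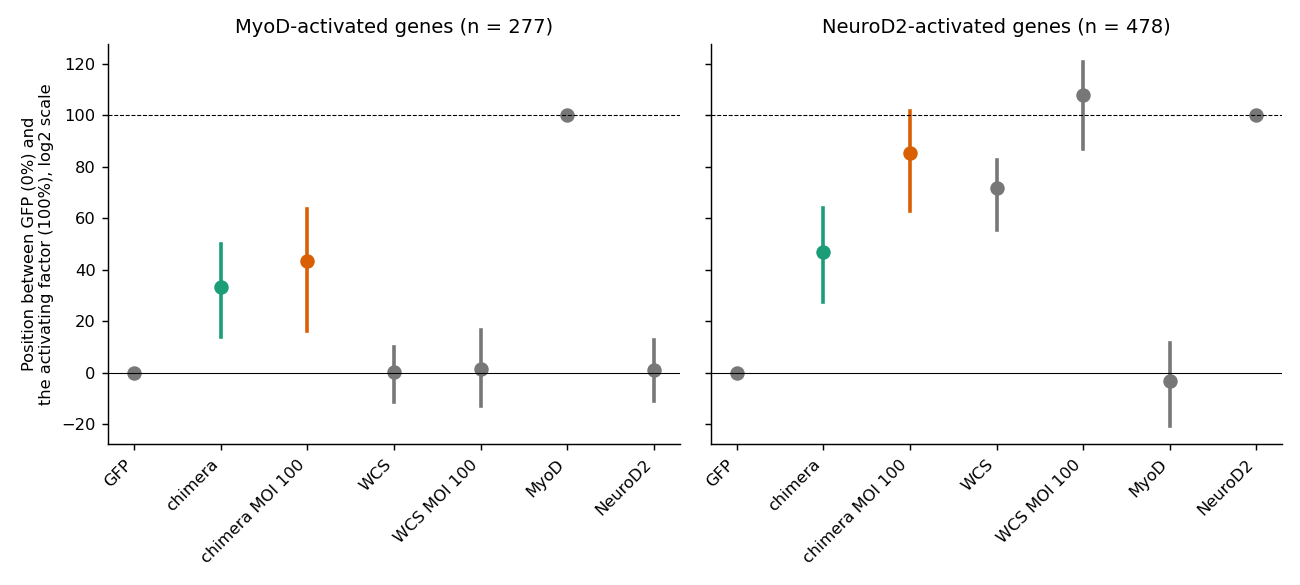
Median (point) and interquartile range over genes (bar) of the position between GFP at 0% and the activating factor at 100% on the log2(CPM + 0.5) scale, in 7 libraries, with the chimera in green and the chimera at MOI 100 in orange. From the chimera to the chimera at MOI 100, the median of NeuroD2-activated genes goes from 47.1% to 85.5% and that of MyoD-activated genes from 33.2% to 43.3%.

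Few genes exceeded the ratio of the delivered gene. Of the 50 with 5 CPM or more whose lower bound was above the Myod1 ratio, 36 were NeuroD2-activated and 1 was MyoD-activated. These sets held 478 and 277 of the 15547 measured genes, in that order. Among the lists, 3 members each of the neuronal cytoskeleton and synaptic lists exceeded it, and 1 member each of the lists of neurogenic regulators, neuron subtype factors, sarcomere genes (Nebl), cell cycle exit (Plk2) and growth factor signalling (Ret). None of the 37 myogenic regulators did, and over all measured genes the share was 0.322%.

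Pluripotency genes were mostly lower. Of 28 measured members, 5 were down by 2-fold at 5 CPM or more, 2 of these by 4-fold, and 0 were up. At any size and level 20 were lower and 8 higher, with log2 ratios of up to 1.36. The median was -0.46 (-0.90 to -0.09), and the fit called 14 of 27 lower and 3 higher. Pou5f1, the factor Oct4, stood at 167 and 38.9 CPM, 4.28-fold lower (4.004 to 4.57), where GFP had 1227 CPM and NeuroD2 109 CPM. Lin28a, an RNA-binding protein of early cells, fell from 502 to 234 CPM. For Nanog and Pou5f1 the chimera at MOI 100 lay below GFP, MyoD and NeuroD2 as well as below the unlabelled chimera. Sox2, a factor shared by pluripotent and neural cells, stood at 158 and 108 CPM, a smaller difference. The summed level of the 36 matched pluripotency genes was 1804 CPM in the chimera and 1095 CPM at MOI 100, against 4235 CPM in GFP. Sox2 was chosen after its value was seen.

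Cell cycle genes shifted together by a small amount. Of 48 measured members, 44 were lower and 4 higher at MOI 100, 2 were at least 2-fold lower, and the median was -0.62 (-0.67 to -0.46). The fit called 39 lower and 0 higher. Ccnb2, a mitotic cyclin, stood at 179 and 84.2 CPM, 2.13-fold lower (2.03 to 2.24), and Aurkb, a mitotic kinase, at 181 and 87.5 CPM, 2.07-fold lower (1.97 to 2.17). Top2a, the topoisomerase of dividing cells, fell from 1088 to 667 CPM. Mki67, a marker of dividing cells, stood at 314 and 282 CPM and was not called in the fit (adjusted p = 0.232). Top2a and Mki67 were chosen after their values were seen. Genes of cell cycle exit had a median of 0.25 (0.10 to 0.65) over 21 members. The fit called 8 of these higher and 2 lower, against 13.5% and 12.2% of all genes tested. Plk2, a polo-like kinase also induced in active neurons, stood at 16.8 and 107 CPM, 6.34-fold higher (5.74 to 7.02), while Cdkn1a, the inhibitor p21, rose from 59.9 to 92.4 CPM. Cdkn1a was chosen after its value was seen.

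Progenitor and Notch genes showed no common direction. Over 34 members the median was 0.19 (-0.22 to 0.37), and 5 were up by 2-fold and 2 down. The fit called 5 higher and 10 lower, against 13.5% and 12.2% of all genes tested. Heyl, a Notch target, stood at 7.61 and 36.3 CPM, 4.78-fold higher (4.10 to 5.58), and Dner, a Notch ligand of neurons, at 3.01 and 14.6 CPM. Sox3, a factor of neural progenitors, fell from 26.9 to 8.54 CPM and Zic2 from 25.1 to 10.4 CPM. Hes1 and Hes5, Notch targets that keep cells as progenitors, fell from 43.1 to 22.3 CPM and from 31.3 to 23.7 CPM, so Notch targets went in either direction. Hes1 and Hes5 were chosen after their values were seen.

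Signalling genes also divided. Among 55 growth factor and morphogen genes, 5 were up by 2-fold (9.09%) and 9 were down (16.4%), where 5.06% and 2.14% of measured genes were. The median was -0.14 (-0.50 to 0.22). The fit called 8 higher and 17 lower, against 13.5% and 12.2% of all genes tested, so the share called higher was near that over all genes. Ret was 6.77-fold higher (6.07 to 7.57) and Sfrp1 4.09-fold lower (3.85 to 4.34). The 2 retinoic acid-degrading enzymes went in opposite directions: Cyp26a1 fell, as given above, and Cyp26b1 rose from 2.67 to 11.5 CPM. E-proteins, the usual partners of bHLH factors, taken with the Id inhibitors and the Pbx and Meis homeodomain cofactors, had a median of -0.10 (-0.32 to 0.36) over 18 members. Id4, an inhibitor of bHLH factors, stood at 52.7 and 22.1 CPM, 2.38-fold lower (2.17 to 2.62), but was not called in the fit (adjusted p = 0.060).

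Genes of the response to virus and to stress had medians near 0. Only 12 of 36 interferon and antiviral genes were measured, with a median of -0.07 (-0.24 to 0.33), 0 at least 2-fold apart at 5 CPM or more in either direction, and 1 called higher and 2 lower. H2-K1, an MHC class I chain, fell from 24.3 to 13.2 CPM. Genes of p53 and apoptosis had a median of 0.07 (-0.14 to 0.34), and those of the integrated stress and unfolded protein responses one of -0.01 (-0.21 to 0.26). Within the latter, 2 chaperone genes of the endoplasmic reticulum rose, with Sdf2l1 at 4.97 and 16.9 CPM and Hspa5 at 525 and 997 CPM, while Trib3, a target of the factor ATF4, fell from 39.4 to 24.8 CPM. Among 18 immediate early genes the median was 0.27 (-0.50 to 0.70). Jun rose from 47.2 to 98.4 CPM and Ccn1, a secreted matrix protein, fell from 31.0 to 7.22 CPM.

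Markers of other cell types were read as whole lists beside these groups. The summed level of 25 cardiac and smooth muscle genes was 280 and 213 CPM, that of 34 fibroblast and matrix genes 1873 and 1667 CPM, that of 32 endoderm and mesoderm genes 104 and 127 CPM, and that of 23 glia and neural crest genes 278 and 349 CPM. By median the fibroblast list stood at -0.44 (-0.85 to 0.16) and the cardiac and smooth muscle list at -0.43 (-0.85 to 0.23). In the fibroblast list 6 of 31 members were at least 2-fold lower and 1 higher, where 2.14% and 5.06% of measured genes were. Pdgfra, a receptor of mesenchymal cells and of glial precursors, stood at 49.1 and 19.99 CPM, against 7.69 CPM or less in GFP, MyoD and NeuroD2. Slc1a2, a glutamate transporter, accounted for much of the glial sum, with 44.98 and 150 CPM, and it stood at 180 CPM in NeuroD2. The part of other cell types in the results was not tested.

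The WCS pair gave the same direction for nearly all genes with a large dose difference in the chimera. The 2 pairs share no library, but the WCS pair also differed in Rn7s6, as given above. Of the 113 genes at least 4-fold higher in the chimera at MOI 100, 113 were also higher in WCS at MOI 100 than in WCS, and 100 (88.5%) were at least 2-fold higher there, where 4.99% of measured genes were. Of the 31 at least 4-fold lower, 30 were lower in WCS and 24 (77.4%) at least 2-fold lower, where 3.95% of measured genes were. The fit called 111 of the 113 and 28 of the 31. It includes the chimera pair by which these genes were chosen, so high shares were built in and add no separate evidence. Across 11539 genes Pearson's r between the log2 ratios was 0.80 and Spearman's rho 0.77, as a description, since genes are not independent replicates. The WCS pair had a larger ratio for the delivered gene, with Myod1 at 77.3 and 857 CPM, so the doses are not matched by level.

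Several list medians differed between the 2 pairs, but their intervals over members were not always separate. For fibroblast and matrix genes the chimera pair gave -0.44 (-0.85 to 0.16) and the WCS pair 0.19 (-0.30 to 0.72). Progenitor and Notch genes gave 0.19 (-0.22 to 0.37) and -0.36 (-0.84 to -0.06) in the same order. Both of these lists thus had overlapping intervals. Sarcomere genes gave 0.45 (0.19 to 0.62) and 0.00 (-0.17 to 0.17), which were narrowly separate. The MyoD-activated set gave 0.40 (0.32 to 0.49) and 0.03 (-0.01 to 0.15), also separate. In WCS the MyoD-activated genes stood at a median position of 0.36% without an MOI label and 1.52% at MOI 100. The synaptic list had 1.34 and 1.24 (1.04 to 1.35), and the cell cycle list -0.62 in both pairs. Whether the dose difference itself differed between the 2 constructs was not tested, since the 4 libraries leave no degree of freedom for it.

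**Figure D5:**
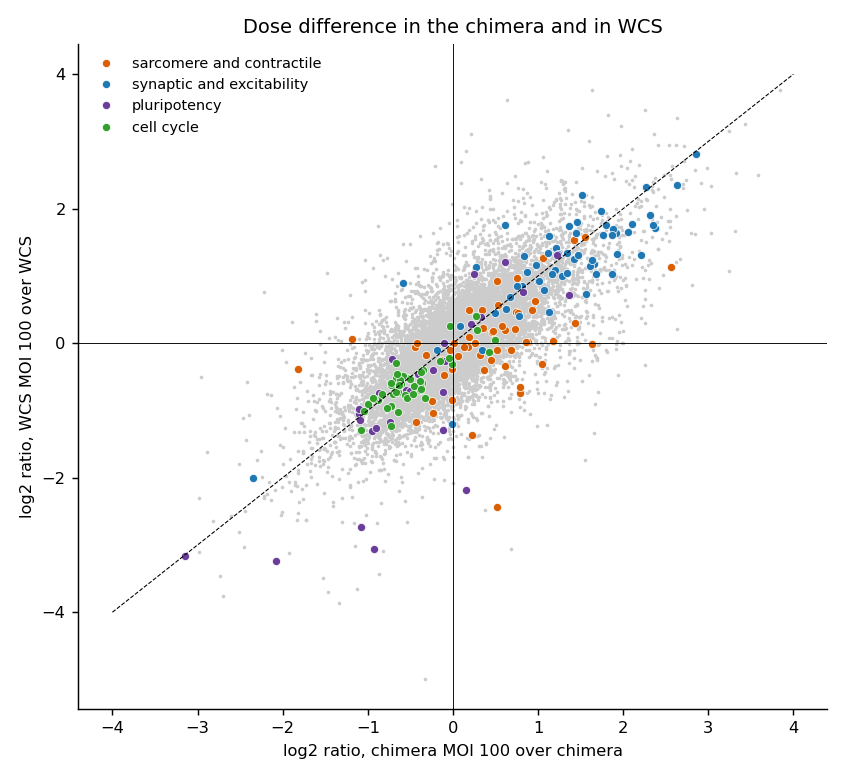
Log2 ratio of MOI 100 over no MOI label in the chimera (across) and in WCS (upward) for measured genes with a symbol, with 4 lists in colour and the dashed line marking equal ratios. Synaptic genes (blue) lie high in both pairs, and sarcomere genes (orange) spread to the right of the line, with Actc1 at 0.52 in the chimera and -2.44 in WCS.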

How the data were processed

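RNA of 8 cultures of transduced P19 cells, 1 poly(A)-selected library each, was sequenced on an Illumina HiSeq instrument, as the labels say. The table that was deposited gives raw counts for each Ensembl gene, which the authors made with CASAVA 1.8.2, TopHat2 2.0.8 and build mm9, per the submitters' processing notes. Which counter, annotation and strand setting were used is not given in the sources used here. For that reason overlapping and antisense genes cannot be separated. Symbols were matched by identifier for 32850 of 37558 genes (87.5%) from an annotation of another build.

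CPM were computed after TMM scaling over the 8 libraries (edgeR 4.0.16). Each CPM ratio has a 95% interval from the exact (Clopper-Pearson) binomial share of its 2 counts. It covers counting error only, since 1 library a side gives no replicate error. It also takes reads as independent molecules, which PCR copies are not. List medians are of log2(CPM + 0.5), with 95% order-statistic intervals over members. The edgeR fit used filterByExpr, estimateDisp, glmQLFit and glmQLFTest. The comparison and the 22 gene lists (756 names, 752 matched) were chosen with earlier results of these data known. Named genes were Myod1, Neurod2, the 4 markers, the 10 highest and 10 lowest under the size rule (ranked by the interval bound closest to a ratio of 1), the 4 members of each list with the largest ratio and at least 5 CPM, and the 10 smallest adjusted p-values in each direction, without predicted models. Not every gene so chosen is named, and some are not reported here. On simulated 4-library counts the fit recovered 97 of 100 genes changed 2-fold and 100 of 100 changed 4-fold, with 10 false calls among 16099 genes tested. The simulated spread between libraries was smaller than the real fit estimated (a coefficient of variation of 0.142). No other genes were changed, and the simulated constructs did not differ. These figures therefore do not give the error rate of the real fit. Alternatives were DESeq2 1.42.0, other scalings, filters, thresholds, set definitions and fits. Software was Python 3.11.15 with scipy 1.17.1, pandas 2.3.3, matplotlib 3.10.9 and numpy 2.4.6, and R 4.3.3.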

Additional observations from a re-analysis of the deposited data

Results flagged for a closer look

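In 4 genes named by the rule the chimera pair and the WCS pair moved in opposite directions with counting intervals clear of no change, and the difference between the pairs was not tested. Eya2, a transcriptional cofactor with a phosphatase domain, had a log2 ratio of 1.67 in the chimera (40.0 and 128 CPM) and stood at 13.7 and 7.05 CPM in the WCS pair. Egr1, an immediate early factor, had 1.70 (17.7 and 58.6 CPM) against 13.2 and 11.3 CPM. Bmp4, a secreted morphogen, had -2.22 (5.69 and 0.833 CPM) against 2.62 and 4.79 CPM. Pmaip1, the p53 target Noxa, had -0.82 (8.02 and 4.34 CPM) against 0.408 and 1.63 CPM. None of the 4 was called in the 4-library edgeR fit, where their adjusted p-values were 0.539, 0.196, 0.492 and 0.837 in that order.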

How the results depend on the processing

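With a pseudocount of 2 CPM the genes at least 4-fold higher and lower numbered 63 and 14, at a 2-fold threshold 786 and 332, and at 8-fold 10 and 1. Other scalings and minimum levels left these counts within 1.5 times the reported ones. A median counted as moved when it left its reported interval over members. Upper-quartile scaling moved the cell cycle list to -0.67 and the NeuroD2-activated set to 1.26, a pseudocount of 2 CPM moved the MyoD-activated set to 0.29 and the NeuroD2-activated set to 1.14, and sets drawn without GFP gave 0.14 and 1.19. Inside their intervals, a pseudocount of 2 CPM took the sarcomere median to 0.27, that of fibroblast genes to -0.27, of cardiac and smooth muscle genes to -0.28 and of immediate early genes to 0.16. The median of the stress list, reported as -0.01, was 0.02 with total-count scaling and 0.13 over members at 5 CPM or more, and no other list or set median changed sign. The 4-library fit called 0 genes in each direction without the construct term, with 3396 of 16122 at an unadjusted p under 0.05, and 3493 higher and 3208 lower with WC taken with WCS. The DESeq2 Wald test called 1678 higher and 1459 lower, and edgeR with all 8 libraries 2146 and 1977. The number of genes above the Myod1 ratio (71 with a minimum of 1 CPM) and the positions under 3 other scalings were alternatives chosen after seeing the data. The construct term is the only pairing the libraries allow, since each group had 1 library. Leaving out any of the 4 libraries leaves no residual degree of freedom, so no such test was made. A count of 0 allows up to 0.113 CPM in the chimera and 0.104 CPM at MOI 100.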

Other observations

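Genes of cytosolic ribosomal proteins were lower as a group, a list chosen after its share of counts was seen. Of 79 measured, 78 were lower at MOI 100 and 1 was higher, with a median log2 ratio of -0.65 (-0.71 to -0.63) in the chimera pair and -1.05 (-1.11 to -1.005) in the WCS pair, and edgeR's 4-library fit called 75 of 78 lower and 0 higher. Only 1 was at least 2-fold lower in the chimera pair, against 49 in the WCS pair. Genes that were at least 4-fold lower in NeuroD2 than in GFP, a set also added after seeing the data, numbered 249. Their median in the chimera pair was -1.06 (-1.18 to -0.95), and at 5 CPM or more 91 were down by 2-fold and 0 up. At any size and level 230 were lower and 19 higher. Those at least 4-fold lower in MyoD than in GFP numbered 143, with a median of -0.62 (-0.82 to -0.36), with 34 down by 2-fold and 12 up. Of the 31 genes at least 4-fold lower at MOI 100, 19 were in the first of these sets and 10 in the second. The sets held 249 and 143 of the 15547 measured genes, and a gene can be in both, as Nanog is.

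In 22 genes the chimera's dose ratio was at least 4 times the WCS ratio, and in 8 it was at most 0.25 times. The first group included Actc1 (481 and 690 CPM, against 19.02 and 3.10 CPM for WCS), Tead4, a factor of muscle and trophoblast (40.6 and 57.7 CPM, against 21.3 and 3.63 CPM), and Grb10, an imprinted adaptor protein (3.88 and 13.3 CPM, against 25.7 and 9.87 CPM). The second included Tmem132c (14.2 and 22.5 CPM, against 1.73 and 26.9 CPM) and Itga3, an integrin chain (11.5 and 3.78 CPM, against 4.93 and 10.7 CPM). These differences between constructs were not tested, and the genes were chosen after their values were seen.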
